A study of Mus musculus with 4 samples.

Results

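The core circadian clock genes were followed in quadriceps RNA of wild-type (WT) and Mef2dα2 Eko (Eko) mice. The 10 genes were chosen by symbol, as the transcription factors of the molecular clock, the Per and Cry repressors and the direct output Dbp. Each stood on 1 of the 51826 rows of the deposited count table. Of the 10, 9 had enough reads for the comparison between genotypes, and Npas2 did not.

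The mice were sedentary males of the C57BL6/J background at about 20 weeks of age on standard chow under equal light and dark periods, with 2 WT and 2 Eko littermates and 1 polyA-selected library per mouse. Eko mice lack the α2 exon of the transcription factor gene Mef2d in the germline, and so in every tissue, and splice the α1 exon in its place. The founder line of these mice was not given in the sources used here. All muscles were collected inside a window of an hour, but the clock time of that window was not given either.

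The clock is a loop of transcription factors and their repressors that turns once a day in nearly every cell. ARNTL (also called BMAL1) pairs with CLOCK or its relative NPAS2 and binds E-boxes to switch on the Per and Cry genes, whose proteins then return to the nucleus and block the pair. In a second loop the same pair switches on Nr1d1, which encodes the nuclear receptor REV-ERBα, and REV-ERBα represses Arntl, while Dbp encodes an activator that carries the rhythm to other genes through D-boxes. In muscles of mice kept in light and dark, Arntl, Clock and Npas2 transcripts peak around the start of the light phase, Nr1d1 around its middle, Dbp later in it, and the Per genes towards its end or in the early dark phase, with Cry1 in the dark phase. The levels of Nr1d1, Dbp and Arntl therefore change with the hour of collection.

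Total expected counts lay between 72626757 and 85176059 per library. Transcripts of the myofiber marker list were abundant in all 4 libraries. Myh4, the main fast myosin heavy chain, lay between 64359 and 69587 CPM (counts scaled to the size of the library). Myh1, Myh2 and Myh7 of this list varied more. Myh1 was at 4967 and 3984 CPM in WT and at 3476 and 3121 CPM in Eko mice. Myh2 was at 1576 and 1709 CPM in WT and at 1264 and 1041 CPM in Eko mice. Myh7 was at 113 and 339 CPM in WT and at 237 and 145 CPM in Eko mice. Of the 7 genes, 3 were higher and 4 lower in Eko mice by fold change, and none passed the threshold given below. Mef2d itself gave 259 and 227 CPM in WT and, in Eko mice, 252 and 241 CPM, a measure per gene that does not separate the α1 and α2 exons. The deletion itself was therefore not analysed here. WT replicate 1 stood apart from the other libraries, with a chi-square per degree of freedom over all genes of 119 to 215 against each of them, where the other pairs gave 35.5 to 42.0. For the clock genes tested, and for Fkbp5 and Hsph1 below, the genotypes were also compared without it. The other list genes, the marker genes, the ratios, the order of the mice and the differences within genotypes are given with it only. With 2 mice per genotype the smallest two-sided p of an exact permutation test is 0.333, and every test below comes from a fit of edgeR across all genes.

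Levels per exon length, in TPM (counts scaled to exon length and library size), placed Dbp first and Npas2 last among the 10 genes. Dbp lay between 73.5 and 97.0 TPM, Nr1d1 between 30.2 and 78.0 TPM, Per1 between 18.8 and 26.4 TPM and Cry2 between 14.1 and 16.2 TPM. Below them came Per2 at a mean of 9.74 TPM, Cry1 at 8.61 TPM, Per3 at 6.64 TPM and Clock at 5.13 TPM. Arntl, at a mean of 1.35 TPM over the 4 mice, was the lowest of the genes that passed the filter on low counts. Npas2, at a mean of 0.0457 TPM, was 29.5-fold below Arntl. The ranges over the 4 mice overlapped between neighbours from Per2 down to Clock and between Dbp and Nr1d1, although Dbp was above Nr1d1 in each mouse. All other neighbours in this order had ranges that did not overlap.

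**Figure D1:**
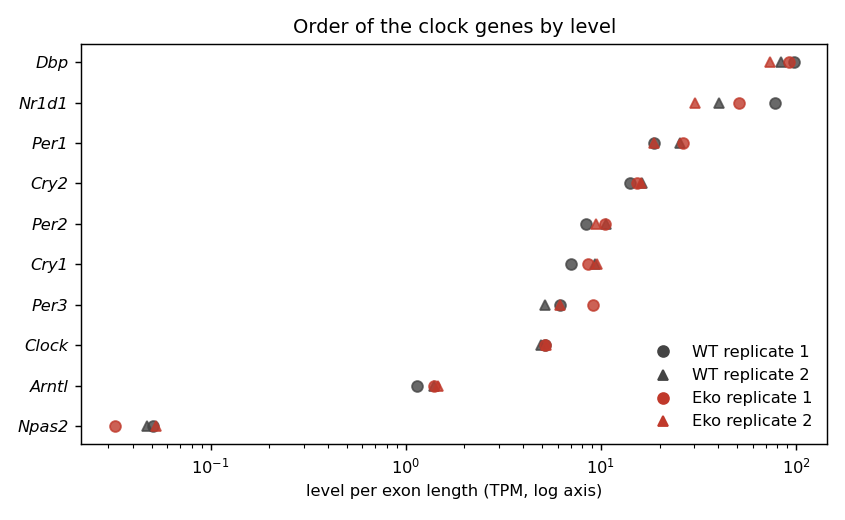
Level per exon length of each clock gene (TPM, log axis) in the 2 WT (grey) and 2 Eko mice (red), with 1 point per mouse. Dbp and Nr1d1 were highest in all 4 mice, Arntl and Npas2 lowest, and the genotypes were mixed along every row but that of Arntl.

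The stretches of promoter that hold the clock's own control elements are shown for the members with an E-box (CACGTG), an E-prime box (CACGTT, which reads AACGTG on the opposite strand) or a D-box (TTATGTAA or TTACGTAA), except Cry2, since these letters tie the members into the loop described above. RefSeq promoters on GRCm38.p6 were available for 9 of the 10 genes, and the entry for Per2 was missing. The 250 bases upstream of each start site were searched on both strands, and capitals mark the matches. Each stretch has 120 bases and reads 5′ to 3′ on the strand of the gene.
Per1 (chr11:69098729-69098848, plus strand, E-box): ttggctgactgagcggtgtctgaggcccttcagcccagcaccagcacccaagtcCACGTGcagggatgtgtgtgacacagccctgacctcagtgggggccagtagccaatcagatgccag
Cry1 (chr10:85185055-85185174, minus strand, E-prime box then E-box): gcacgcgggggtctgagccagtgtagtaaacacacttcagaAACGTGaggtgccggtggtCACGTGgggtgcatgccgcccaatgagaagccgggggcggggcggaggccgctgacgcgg
Per3 (chr4:151044786-151044905, minus strand, 2 D-boxes): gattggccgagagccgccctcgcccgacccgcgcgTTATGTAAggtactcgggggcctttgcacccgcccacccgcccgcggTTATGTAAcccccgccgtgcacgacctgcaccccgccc
Nr1d1 (chr11:98775378-98775497, minus strand, E-prime box): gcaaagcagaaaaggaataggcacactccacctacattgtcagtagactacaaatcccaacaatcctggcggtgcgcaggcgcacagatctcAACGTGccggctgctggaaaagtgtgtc

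Of the 9 members with a promoter, 2 held an E-box, 3 an E-prime box and 1 a D-box in this window. An E-box was in 6.02% of all 32851 promoters in the table, an E-prime box in 3.85% and a D-box in 0.931%. The ROR element, searched as AANTAGGTCA or AANTGGGTCA, was in none of the members' windows and in 0.35% of all promoters. The MEF2 motif was found once among the members, upstream of the second listed start site of Per1, against 2.92% of all promoters. Such matches describe these windows only.

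None of the 9 clock genes tested passed the threshold between the genotypes, set at 0.05 for the Benjamini-Hochberg adjusted p of the quasi-likelihood test in edgeR. The background was 67 of 16120 genes, or 0.416%, so a count of 0 among 9 genes lies near it. None of the 9 had an unadjusted p below 0.05 either, whereas 11.6% of all genes tested did, and DESeq2 called none of the 9, where it called 1.97% of all genes. The median log2 fold change of the 9 genes, Eko against WT, was 0.00, with 4 genes above 0 and 5 below, beside a median of -0.01 over all genes tested. The genotypes failed to overlap in 1 of the 9 genes, Arntl, and in 43.8% of all genes tested.

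Without WT replicate 1, the library that stood apart, none of the 9 was called either, and the log2 fold changes of Clock, Per2, Cry1, Dbp and Nr1d1 changed sign. Among the alternatives that did not use the replicate number as a block, 2 called members. Without the filter on low counts, Nr1d1 (lower) and Per3 (higher) were called, where 3.25% of all genes were. Without Eko replicate 1 Nr1d1 was called, where 1.22% of genes were.

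**Figure D2:**
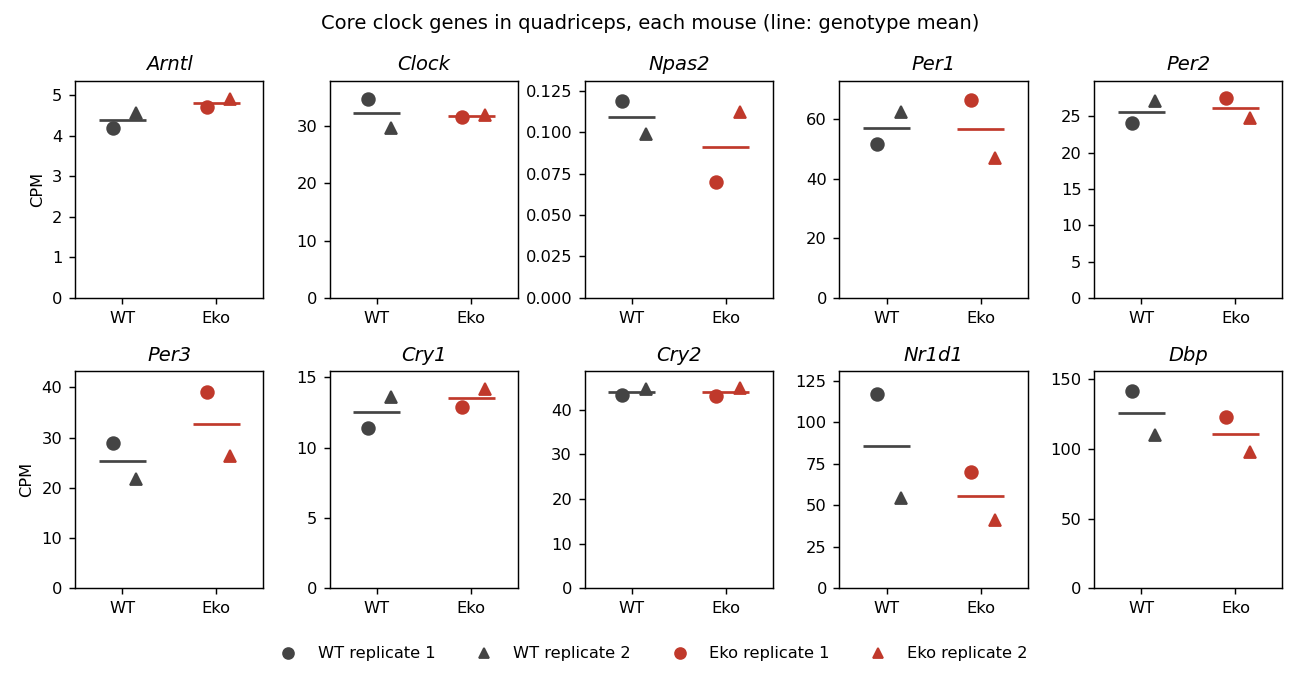
CPM of each clock gene in the 2 WT (grey) and 2 Eko mice (red), where circles are replicate 1, triangles replicate 2 and lines the genotype means. Nr1d1 was spread from 41.3 to 117 CPM over the 4 mice, whereas Cry2 stayed between 43.1 and 44.9 CPM.

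Arntl (chr7:113207465-113314126 on GRCm38), the activator without which the clock stops, stood at 4.19 and 4.58 CPM (WT) against 4.71 and 4.92 CPM (Eko). Both Eko mice were above both WT mice, by a small margin. In RNA of whole muscle, fewer cells of a type and less RNA per cell cannot be told apart, here and for every gene below. The log2 fold change was 0.14 (standard error 0.12, 95% interval -0.16 to 0.43, adjusted p = 0.723), and leaving out any 1 mouse moved it between 0.07 and 0.21.

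Clock (chr5:76209868-76304792), the usual partner of ARNTL, measured 34.8 and 29.6 CPM in WT against 31.6 and 31.9 CPM in Eko mice. Both Eko mice lay between the WT mice. The log2 fold change was -0.02 (95% interval -0.24 to 0.20, adjusted p = 0.953). Npas2 (chr1:39193731-39363236), which can replace Clock, was met by 9 and 8 counts in WT against 6 and 8 in Eko mice. By 95% Poisson intervals on the sums, which cover counting error only, the WT total of 17 counts had an interval from 9.9 to 27.2 and the Eko total of 14 counts an interval from 7.65 to 23.5. A difference in Npas2 was not detectable at this depth.

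Among the repressors that close the first loop, Cry2 varied least. Cry2 (chr2:92403646-92434043), which shares 295 exonic bases with D930015M05Rik on the other strand, gave 43.4 and 44.8 CPM in WT and, in Eko mice, 43.1 and 44.9 CPM, so both WT mice lay between the Eko mice. The fitted log2 fold change came to 0.00 (standard error 0.07), and the 95% interval, from 0.893-fold to 1.12-fold, was the narrowest of the 9 genes. Cry1 (chr10:85131700-85185064), the stronger repressor of the pair in many tissues, stood at 11.4 and 13.6 CPM (WT) against 12.9 and 14.1 CPM (Eko), with a log2 fold change of 0.11 (95% interval -0.15 to 0.37, adjusted p = 0.749). The genotypes overlapped for both Cry genes.

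Per1 (chr11:69095217-69109960), which answers acutely to glucocorticoids and cAMP as well as to the clock, measured 51.7 and 62.6 CPM in WT against 66.5 and 47.1 CPM in Eko mice. The WT mice lay between the Eko mice, and the log2 fold change was -0.01 (95% interval -0.40 to 0.38, adjusted p = 0.992). Per2 (chr1:91415982-91459324), its paralog, gave 24.1 and 27.1 CPM in WT and, in Eko mice, 27.5 and 24.7 CPM, with a log2 fold change of 0.03 (95% interval -0.19 to 0.25, adjusted p = 0.934). Per1 and Per2 ranked the 4 mice alike at the top, with Eko replicate 1 first and WT replicate 2 second.

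Per3 (chr4:151003652-151044665), the Per gene least needed for the rhythm, had the largest positive difference of the 9. It stood at 28.9 and 21.7 CPM (WT) against 39.1 and 26.4 CPM (Eko). The highest value was in Eko replicate 1, and the other Eko mouse lay between the WT mice. The log2 fold change was 0.37 (standard error 0.20, 95% interval -0.10 to 0.85, adjusted p = 0.531). It was 0.07 without Eko replicate 1, 0.63 without Eko replicate 2 and 0.60 without WT replicate 1.

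Nr1d1 (chr11:98767932-98775333 on GRCm38, minus strand), the repressor of the second loop, had the largest negative difference. It drew 8880 and 4403 expected counts in WT against 6049 and 2956 in Eko mice. These correspond to 117 and 54.4 CPM in WT and 70.2 and 41.3 CPM in Eko mice, so WT replicate 1, the library that stood apart from the rest, was highest, and the genotypes overlapped. The log2 fold change was -0.62 (standard error 0.37, 95% interval -1.49 to 0.25, adjusted p = 0.566), which leaves room for a level from 0.357-fold to 1.19-fold that of WT. Without WT replicate 1 it was 0.04, without WT replicate 2 it was -1.05, and without Eko replicate 1 it was -1.04 with an adjusted p of 0.0457. Nr1d1 shares 263 exonic bases with Thra, the thyroid hormone receptor α gene on the other strand, and although the library kit keeps strand, the strand setting of the counting was not given in the sources used here. Thra was at 44.2, 42.3, 46.4 and 43.0 CPM in WT replicates 1 and 2 and Eko replicates 1 and 2, a narrow range beside that of Nr1d1.

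Dbp (chr7:45705088-45710203 on GRCm38, plus strand), the output of the loop, measured 142 and 110 CPM in WT against 123 and 98.0 CPM in Eko mice. The mice stood in the same order as for Nr1d1, from WT replicate 1 over Eko replicate 1 and WT replicate 2 to Eko replicate 2. The log2 fold change was -0.19 (standard error 0.15, 95% interval -0.53 to 0.15, adjusted p = 0.667), and it was 0.00 without WT replicate 1. Dbp shares 539 exonic bases with Sphk2 on the other strand, which was between 11.3 and 14.6 CPM.

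**Figure D3:**
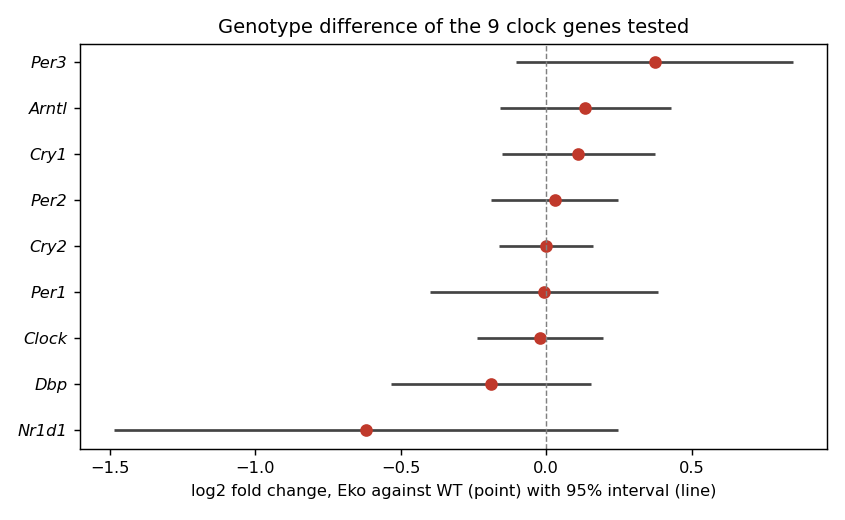
Log2 fold change of the 9 clock genes tested, Eko against WT (points), with unadjusted 95% intervals from edgeR's quasi-likelihood fit (lines). All 9 intervals cover 0, and that of Nr1d1, from -1.49 to 0.25, is the widest.

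For every tested member but Arntl and Clock, the mice of each genotype differed from each other by more than the genotypes did. Nr1d1 was 2.15-fold higher in WT replicate 1 than in WT replicate 2 and 1.70-fold higher in Eko replicate 1 than in Eko replicate 2. Among the 6575 genes with a mean of at least 10 CPM, 0.319% differed as much between the WT mice and 0.426% as much between the Eko mice. In both genotypes at once, 9 genes, Nr1d1 included, differed by at least its smaller value, 0.76 on the log2 scale. Per3 followed, with log2 differences of 0.41 between the WT mice and 0.57 between the Eko mice, and 0.882% of genes reached 0.41 in both genotypes. For Cry2 the differences were 0.05 and 0.06, beside medians of 0.09 and 0.07 over these genes.

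**Figure D4:**
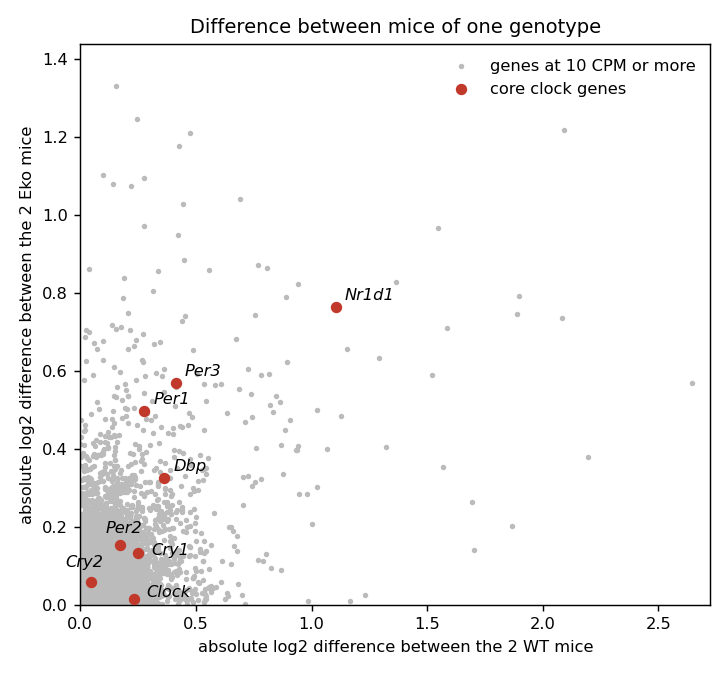
Absolute log2 difference in CPM between the 2 WT mice (horizontal) and between the 2 Eko mice (vertical) for 6575 genes with a mean of at least 10 CPM (grey) and the clock genes among them (red). Nr1d1, the point at a 2.15-fold difference in WT and a 1.70-fold one in Eko mice, stands far from the bulk of genes, Per3, Per1 and Dbp lie at its edge, and Cry2, Clock, Cry1 and Per2 lie inside it.

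Ratios of members within a mouse do not depend on the scaling of the libraries and set genes of different peak times against each other. Per length, Dbp was 85.0-fold and 60.5-fold above Arntl in the WT mice and 65.5-fold and 50.0-fold above it in the Eko mice. Nr1d1 was 68.3-fold and 29.1-fold above Arntl in WT and 36.4-fold and 20.5-fold above it in Eko mice. In all 4 mice the genes that peak within the light phase were thus far above the gene that peaks at its start, a ratio that also holds each gene's own mean level over the day. The ratio of Dbp to Nr1d1 was 1.24 and 2.08 in WT and 1.80 and 2.44 in Eko mice, lowest in WT replicate 1 and highest in Eko replicate 2. The ratio of Per2 to Nr1d1 followed the same order, at 0.108 and 0.262 in WT and 0.206 and 0.314 in Eko mice. Both ratios share Nr1d1, which spanned 2.83-fold over the mice, against 1.45-fold for Dbp and 1.14-fold for Per2. Their common order therefore mostly restates that of Nr1d1 and is no second observation. The ratio of Per3 to Nr1d1 did not keep it, at 0.0790 and 0.128 in WT and 0.178 and 0.204 in Eko mice. No reference series over the day was at hand, so no hour was assigned to a mouse. The part of the hour of collection in the differences between mice was not tested.

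A phase contrast was formed in each mouse from the mean log2 CPM of Nr1d1, Dbp, Per1, Per2 and Per3 minus that of Arntl, Clock, Npas2 and Cry1. WT mice reached 3.92 and 3.67 and Eko mice 4.07 and 3.39, so the WT mice lay between the Eko mice. The genotype means differed by -0.06, less than the SD of 0.18 (n = 2) in WT and of 0.48 (n = 2) in Eko mice. Without Npas2, whose counts were few, WT mice reached 2.26 and 1.93 and Eko mice 2.20 and 1.67.

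No other gene of the loop passed the same test, and none had an unadjusted p below 0.05 but Rorb. Of the 8 genes of the feedback and stabilizing loop (Nr1d2, the Ror genes, Bhlhe40, Bhlhe41, Ciart and Arntl2), 3 were above 0 and 5 below, with a median log2 fold change of -0.11. Ciart, which encodes the ARNTL repressor CHRONO, gave 13.6 and 6.36 CPM in WT and, in Eko mice, 9.26 and 4.14 CPM (log2 fold change -0.56, adjusted p = 0.668). This difference rests on WT replicate 1, the library that stood apart, since WT replicate 2 lay between the Eko mice. The mice stood in the order of Nr1d1, and the ratio of Ciart to Nr1d1 per length stayed between 0.136 and 0.180 while Nr1d1 itself spanned 2.83-fold. Nr1d2, the paralog of Nr1d1 and named here after its values were seen, stayed between 152 and 169 CPM. Rorb, an activator of Arntl that is scarce in muscle, stood at 0.184 and 0.408 CPM (WT) against 0.742 and 0.853 CPM (Eko) (log2 fold change 1.42, adjusted p = 0.297).

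Of the 3 bZIP factors that act on D-boxes beside Dbp, none passed. Nfil3, which competes with DBP for D-boxes and is repressed by REV-ERBα, measured 21.3 and 35.6 CPM in WT against 16.5 and 23.0 CPM in Eko mice (log2 fold change -0.53, adjusted p = 0.477). In each genotype the mouse with more Nr1d1 had less Nfil3. Hlf had a log2 fold change of 0.16 (adjusted p = 0.580), and Tef, named after its values were seen, stayed between 287 and 317 CPM.

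**Figure D5:**
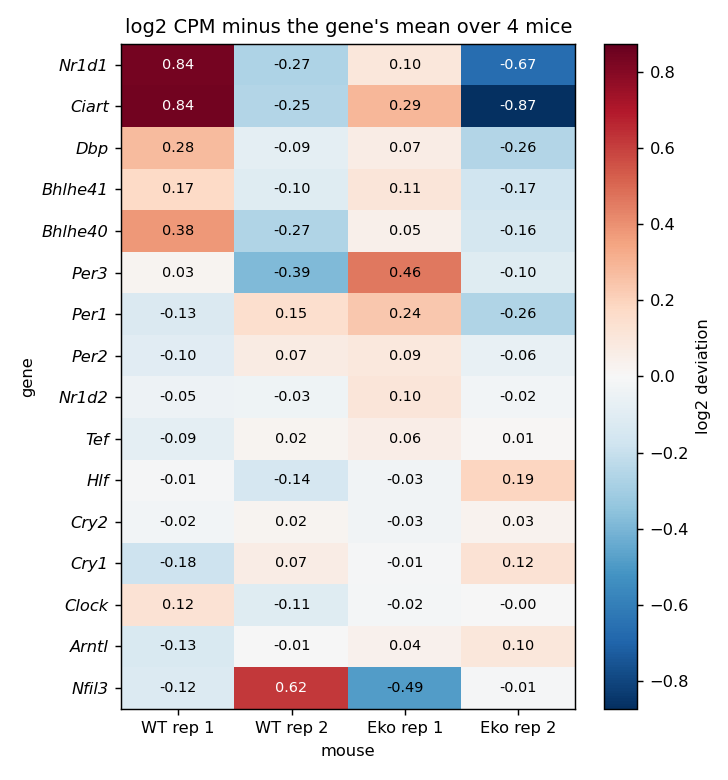
Log2 CPM of 9 clock genes and 7 related genes in each mouse minus the gene's mean over the 4 mice (numbers and colour, red above and blue below the mean). Nr1d1 and Ciart share their pattern, from 0.84 in WT replicate 1 to -0.67 and -0.87 in Eko replicate 2, and Dbp has the same order of mice in a smaller range.

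Among the 12 tested genes for kinases, ubiquitin ligases and partners that set the stability of clock proteins, none passed, and the median log2 fold change was 0.02. Usp2, a deubiquitinase with a strong daily rhythm in many tissues, had a log2 fold change of -0.20 (adjusted p = 0.462). Of 8 output genes, none passed either, and the largest differences were 0.92 for Lonrf3 (adjusted p = 0.331) and 0.59 for the cell cycle inhibitor Cdkn1a (adjusted p = 0.150). For these 2 genes both Eko mice were above both WT mice. The genotypes failed to overlap in 4 of the 8 output genes, beside 43.8% of all genes tested. Among the 4, Nampt, named after its values were seen, was lower in both Eko mice (log2 fold change -0.29, adjusted p = 0.180).

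Peripheral clocks are also set by hormones, activity and temperature, and 2 of the 20 genes in lists for these cues passed, both lower in Eko mice, where 0.31% of all genes tested were called lower. Fkbp5, a glucocorticoid receptor target that encodes a co-chaperone of the receptor, stood at 45.7 and 41.2 CPM (WT) against 25.2 and 24.7 CPM (Eko). It fell by 0.80 on the log2 scale (standard error 0.08, adjusted p = 0.0301), and its adjusted p was at most 0.0438 over 14 alternatives. The other 6 glucocorticoid-responsive genes did not pass, and the median of the 7 was -0.04. Mt2, a metallothionein, had a log2 fold change of -0.33 (adjusted p = 0.685). Hsph1, a heat-inducible chaperone, measured 140 and 141 CPM in WT against 87.8 and 96.5 CPM in Eko mice. It fell by 0.61 on the log2 scale (adjusted p = 0.0424) and had an adjusted p of at most 0.0492 over the same alternatives. Without WT replicate 1 the log2 fold changes were -0.72 for Fkbp5 (adjusted p = 0.0108) and -0.61 for Hsph1 (adjusted p = 0.0274).

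All 7 temperature-responsive genes had genotypes that did not overlap, where 43.8% of all genes tested did, with 5 lower and 2 higher in Eko mice. Besides Hsph1 none of them passed. Hspa1a and Hspa1b, near-identical heat shock genes among which reads can be shared, had log2 fold changes of -2.61 and -2.89 (adjusted p = 0.178 and 0.204). For Hspa1a the WT mice were at 24.3 and 90.0 CPM and the Eko mice at 7.02 and 11.8 CPM, so the WT mice also differed widely. Cirbp and Rbm3, RNA-binding proteins induced by mild cold and named after their values were seen, had log2 fold changes of 0.28 and 0.27 (adjusted p = 0.326 for both). Of the 6 CREB- and serum-responsive genes none passed. Nr4a1, named after its values were seen, came nearest to the threshold (log2 fold change -0.51, adjusted p = 0.0619). It was at 195 and 178 CPM in WT against 126 and 135 CPM in Eko mice, and only for this 1 of the 6 did the genotypes not overlap. Egr1 gave 22.2 and 2.99 CPM in WT and, in Eko mice, 10.1 and 2.70 CPM, again with replicate 1 of each genotype high (log2 fold change -0.95, adjusted p = 0.722), and Fosb had a log2 fold change of 1.36 (adjusted p = 0.709), with its highest value, 3.49 CPM, and its lowest, 0.0839 CPM, both in Eko mice.

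In part, markers of adipocytes stood in the order of the mice for Nr1d1 and Dbp. The summed level of the 6 markers was 120 and 83.4 CPM in the WT mice and 86.7 and 66.0 CPM in the Eko mice, in that order, and Fabp4 alone made up 60.2 to 86.9 CPM of it. Adipoq, Plin1, Cidec and Fabp4 each had this order, whereas Retn was higher in both WT mice and Lep was highest in Eko replicate 1. In 5 of the 6 the log2 fold change was below 0, with a median of -1.08 over the 6. None passed, and none of the 6 was at 0 in any library. The 4 macrophage markers summed to 17.2 and 13.1 CPM in WT and to 13.3 and 9.05 CPM in Eko mice, in the same order. Adgre1 and Mrc1 each had this order, whereas Cd68 and Csf1r were higher in both WT mice. The genotypes thus failed to overlap in 2 of the 4, beside 43.8% of all genes tested. All 4 had a log2 fold change below 0, with a median of -0.56, and none passed. The 3 Schwann cell markers summed to 14.4 and 16.2 CPM in WT and to 17.5 and 22.2 CPM in Eko mice, which is the order of the mice for Arntl, and all 3 had a log2 fold change above 0 without passing. Fibroblast markers summed to between 263 and 341 CPM, endothelial markers to between 119 and 137 CPM, smooth muscle markers to between 41.4 and 53.0 CPM, satellite cell markers to between 3.04 and 4.46 CPM and red blood cell markers to between 63.9 and 67.1 CPM. The part of other cell types in the levels of Nr1d1, Ciart, Dbp and Arntl was not tested.

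The genes whose profile over the 4 libraries came closest to that of Dbp, by the root mean square difference of their log2 deviations, were Zfp408, Gm6485, Atp5sl, Gm45495 and Cep95, at 0.0116 to 0.0243. For Arntl they were Zfand5, Gemin5, Gtf2e1, Ngly1 and Synj2, at 0.0029 to 0.0083. Among the members, Cry1 came closest to Arntl, at 0.0513, in place 1000 of the ranking over 12128 genes, so that many genes matched better over as few as 4 libraries. Clock came closest to Dbp, at 0.154 in place 1661, and Nr1d1, which shared the order of the mice with Dbp but had a wider range, was the farthest member, at 0.359 in place 11180.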

How the data were processed

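Quadriceps RNA of 2 WT and 2 Mef2dα2 Eko mice was analysed, grouped by the labels. The authors aligned reads to mm10 (STAR 2.6.1a is listed in the submitters' processing notes), ran RSEM on the Ensembl gene models of GRCm38, and deposited the resulting expected counts per gene, not normalized. All were whole numbers, so rounding changed no value. Counts were compared in R 4.3.3 with edgeR 4.0.16 (quasi-likelihood test, TMM, genotype as the sole term, default filter on low counts, prior count 0.125), which kept 16120 of 24621 genes with any count, with Benjamini-Hochberg adjustment at 0.05. Depth set the smallest visible level, taken as 3 counts, at 0.0348 to 0.0419 CPM, for counting error only. CPM used TMM-scaled totals, and TPM the exon lengths of GENCODE M21. Standard errors came from the F statistic.

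The members and lists were chosen with earlier results of these data known. The text names all members, list genes past the threshold or else the 2 with the largest differences, and the 5 profiles nearest to Dbp and to Arntl among genes of at least 1 CPM. One gene that this rule names is not reported here. Alternatives were DESeq2 1.42.0, other normalizations, filters and tests (limma 3.58.1 for voom), a replicate block, an offset for GC content, and leaving out each mouse.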

Additional observations from a re-analysis of the deposited data

How the results depend on the processing

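The number of genes called, 67, was 318 with DESeq2, 799 without the filter on low counts, 23 with at least 1 CPM in 2 libraries, 312 with the likelihood ratio test, 40 with the GC offset, and 99 to 299 with each mouse left out. With the replicate number as a block it was 186, and 277 with the GC offset and the block. Same-numbered mice are different animals whose deviations correlated at 0.09, so the numbers are not taken as pairs. The number of clock genes called, 0, was 2 without the filter (Nr1d1 at 2.1e-10 and Per3 at 0.00315), 1 with the block (Nr1d1 at 0.0389), 2 with the GC offset and the block (Nr1d1 at 0.0255 and Per3 at 0.0483), and 0 to 1 with each mouse left out (Nr1d1 without Eko replicate 1). These values are adjusted p-values of edgeR fits, and the cause was not tested. When a genotype has 1 mouse left, it is assumed to vary like the other.

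Some log2 fold changes changed sign, and no value of changed sign passed the threshold. That of Per1 was 0.068 with the GC offset and 0.058 with the offset and the block, and that of Cry2 was 0.0059 with DESeq2, 0.0060 with RLE normalization, 0.049 with the GC offset and 0.050 with the offset and the block. With each mouse left out they ran from -0.12 to 0.10 for Clock, from -0.26 to 0.22 for Per1, from -0.054 to 0.13 for Per2, from -0.0082 to 0.26 for Cry1, from -0.032 to 0.042 for Cry2, from -0.35 to 0.0037 for Dbp and from -1.05 to 0.036 for Nr1d1. The difference in the phase contrast, -0.06, moved by less than the SD of the Eko mice, 0.48, under its 8 alternatives. That SD comes from 2 mice and is much larger than the difference, so it is a loose measure. TPM in place of CPM could not move the difference, because exon lengths and library scaling cancel in it. With a mouse left out it ran from -0.41 to 0.28 and so had no stable sign. The alternative without Npas2 was chosen after seeing the data, as was a minimum of 1 CPM for the differences within genotypes, at which 53 of 12128 genes (0.437%) differed in both genotypes by at least the smaller value of Nr1d1. Depth limited Npas2, with 6 to 9 counts per library. Over the genes tested, log2 fold changes ran against GC content (rank correlation -0.21, and -0.0042 after the offset), and the offset left Nr1d1 at -0.55 and Dbp at -0.09.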

Other observations

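The order of the mice for Nr1d1, Dbp and Ciart, from WT replicate 1 over Eko replicate 1 and WT replicate 2 to Eko replicate 2, is also the order of the mouse numbers in the sample labels. Whether those numbers follow the order of collection was not given in the sources used here. Of all 16120 genes tested, 848 (5.26%) showed this order, among them 2 of the clock genes. Outside the members it was seen, after the values were known, for the basic helix-loop-helix repressor Bhlhe41, at 94.5 and 78.0 CPM in WT and 90.2 and 74.3 CPM in Eko mice, for the immediate early genes Egr1 and Junb, and for the adipocyte markers Adipoq, Plin1, Cidec and Fabp4. The immediate early gene Fos and the adipocyte markers Lep and Retn did not show it, with Fos and Lep highest in Eko replicate 1. Nr1d2 and Tef, which share regulators with Nr1d1 and Dbp, did not show it.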
